A study of Mus musculus with 6 samples.

Results

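SCRB-seq and SMART-Seq2, 2 library chemistries, were compared on the same kind of bulk well: nuclei of mouse cortex sorted 10 or 100 to a well and read either by SCRB-seq or by SMART-Seq2. Members were chosen by the authors' annotation of each well, which gives the treatment and the number of nuclei. They were 72 of the 76 bulk wells: 48 SCRB-seq and 6 SMART-Seq2 wells of formalin-fixed paraffin-embedded (FFPE) tissue, and 16 SCRB-seq and 2 SMART-Seq2 wells of frozen tissue. The other 4 SMART-Seq2 wells held 50 nuclei, had no SCRB-seq counterpart and entered no fit. The comparison ran over the 18702 gene symbols that both tables held, out of 19006 mouse symbols in the SCRB-seq table and 21987 in the SMART-Seq2 table. All animals were C57BL/6J mice aged 8 to 12 weeks, and the labels give neither the sex nor the animal behind a well. The FFPE scrolls were freed of paraffin by mineral oil with heat, by xylene with heat or by xylene at room temperature, and each method was read at 10 and at 100 nuclei. That made 6 FFPE groups and 2 frozen groups, each with 8 SCRB-seq wells and 1 SMART-Seq2 well. The 8 SCRB-seq wells of a group carry 1 shared pool index, and all wells of a chemistry belong to 1 deposited sample. The p-values of the chemistry tests on genes therefore measure only how the chemistry difference varied between groups. Those of tests on wells measure only the spread between wells. Either spread may be technical. The well names of each chemistry carry a run label of their own, and chemistry and run cannot be told apart.

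SCRB-seq primes each well with an oligo-dT primer that carries a well barcode, pools the barcoded cDNA and sequences the 3′ ends of transcripts. SMART-Seq2 also starts from oligo-dT, but copies the transcript to its 5′ end by template switching and sequences fragments from along its whole length, so that a long transcript can give more reads than a short one. Nuclei hold much unspliced RNA, whose introns contain internal runs of A at which an oligo-dT primer can start. Formalin fixation fragments and crosslinks RNA, which shortens what either chemistry can copy.

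The 8 SCRB-seq wells of each pool were told apart by 8 well barcodes, the same 8 in every pool. They are shown because many of the genes that were higher in SCRB-seq also differed from barcode to barcode.
Barcode 1: ATACTT
Barcode 2: CTTCTG
Barcode 3: TTCCTC
Barcode 4: AGAATT
Barcode 5: CGACTT
Barcode 6: CGGAGG
Barcode 7: GCGTGG
Barcode 8: CGTCGC
Barcodes 1 and 4 held 1 G or C each, barcodes 2, 3 and 5 held 3, and barcodes 6, 7 and 8 held 5.

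Among the genes that were highest in SMART-Seq2 were short predicted genes that share sequence. Gm10800 and Gm10801, both on mouse chromosome 2, share a run of 86 bases, shown here from the annotated transcripts (GENCODE M21, build GRCm38), with the 37 bases that also occur in Gm21738 on chromosome 14 in capitals.
Gm10800 and Gm10801: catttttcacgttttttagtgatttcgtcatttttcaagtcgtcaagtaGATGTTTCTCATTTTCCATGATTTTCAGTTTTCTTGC
The run lies in exon 4 of 5 of Gm10800 at chr2:98666781-98666866 on the minus strand, and in exon 1 of 4 of Gm10801 at chr2:98662255-98662340 on the plus strand. In both genes all of it is annotated as coding sequence. The longest run shared by Gm10800 and Gm21738 was 67 bases, and by Gm10801 and Gm21738 it was 54 bases. Gm26870, a long non-coding RNA gene on chromosome 9, shared runs of 72 to 152 bases with these 3 genes on the opposite strand. Reads from such copies can be split between genes or lost in counting, so the level of each single gene is uncertain.

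The SMART-Seq2 wells held more counts. How molecular identifiers were handled is not stated, so a count may not mean the same in both chemistries. SCRB-seq wells held 7466 to 147131 counts on shared genes in FFPE nuclei (median 56628.5) and 17604 to 167097 in frozen nuclei, against 490223 to 941740 and 466223 to 890252 in SMART-Seq2. The SCRB-seq table also counted 10653 human genes. Their mean share of a well's counts was 19.3% at 10 FFPE nuclei, 9.31% at 100 FFPE nuclei, 2.78% at 10 frozen nuclei and 1.91% at 100 frozen nuclei. Human genes were left out of all levels, which are given as counts per 1e+06 counts (CPM) on shared mouse genes. For gene tests the 8 SCRB-seq wells of a group were summed to 1 library. The pool of 10 nuclei from heated mineral oil stood apart, with 114661 counts against 294217 to 770990 in the other 7 pools and with a human share of 26.7%. All 10 listed cortical excitatory markers were detected by both chemistries in both materials, and cerebellar granule and striatal markers were also present. In FFPE nuclei the excitatory markers held 0.0596% of SCRB-seq and 0.0453% of SMART-Seq2 counts, under the granule markers at 0.229% and 0.352%. In frozen nuclei the order was reversed, at 0.175% and 0.248% against 0.0306% and 0.0486%. The cause of this difference between the materials was not tested.

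**Figure D1:**
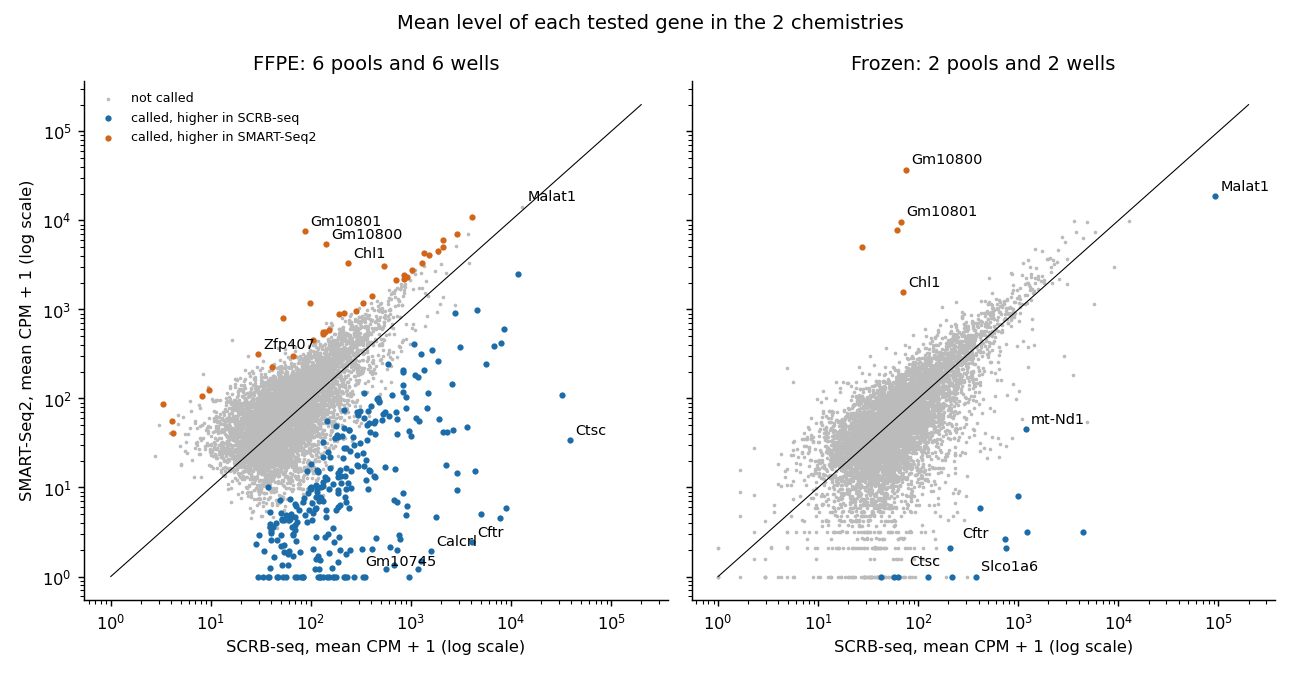
Mean level of each tested gene in SCRB-seq (x) against SMART-Seq2 (y), as CPM + 1 on log axes with the line of equality, for FFPE nuclei (6 libraries a chemistry) and frozen nuclei (2 libraries a chemistry). Coloured points are genes past the edgeR threshold: 274 were higher in SCRB-seq and 37 in SMART-Seq2 in FFPE nuclei, against 15 and 5 in frozen nuclei.

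In FFPE nuclei the chemistries parted most over genes that SCRB-seq counted often and SMART-Seq2 hardly at all. Of 6777 genes tested, 311 (4.59%) passed edgeR's quasi-likelihood test at an adjusted p under 0.05, of which 274 (4.04%) were higher in SCRB-seq and 37 (0.546%) in SMART-Seq2. The direction was the same in 6 of 6 groups for 263 of the 274 and for all 37. The median log2 fold change, given as SMART-Seq2 minus SCRB-seq, was -5.36 over the 274 (-5.34 with genes at 0 set to their bound) and 2.09 over the 37, against -0.05 over all genes tested. Of the 274, 29 had a count of 0 in every SMART-Seq2 FFPE well. With single wells as libraries, which also changed the genes tested and moved the median of all genes to 0.63, 1342 of 2955 genes passed, 920 of them higher in SMART-Seq2. Without the heated mineral oil libraries of 10 nuclei, 309 of 7723 genes passed, 39 higher in SMART-Seq2 and 270 in SCRB-seq. The 37 ranged from 4 at 10 nuclei alone to 102 with limma voom and 213 with DESeq2's Wald test, apart from the fit of single wells. They fell to 18 with DESeq2 size factors, and to 17 and 19 without the frozen libraries of 10 or 100 nuclei, 17 without heated mineral oil at 100 nuclei, and 14 and 15 without heated xylene at 10 or 100 nuclei.

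The gene with the largest share of SCRB-seq counts in FFPE nuclei was Ctsc, which encodes the lysosomal protease cathepsin C. It held 2.62% of all FFPE SCRB-seq counts. Ctsc (chr7:88278085-88310888, plus strand, GRCm38) lay at 8465, 27382 and 103819 CPM (lowest, median and highest of 6 SCRB-seq libraries) and at 0, 6.07 and 177 CPM in SMART-Seq2. Every SCRB-seq library was above every SMART-Seq2 library, and within SCRB-seq the pools of 10 nuclei were higher than those of 100 nuclei in each method, by 2.66 to 5.95 times. Its log2 fold change was -12.18 ± 1.00 (SE, n = 6 libraries a chemistry, edgeR adjusted p = 3.61e-07).

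Tspan3, a tetraspanin membrane protein gene, showed the same pattern. Its SCRB-seq levels were 5213, 24440.2 and 89010.2 CPM (lowest, median and highest), and its SMART-Seq2 levels were 9.77, 101 and 209 CPM. The groups did not overlap, and each SCRB-seq pool of 10 nuclei was 3.01 to 7.83 times as high as that of 100 nuclei from the same method. The log2 fold change of Tspan3 was -7.89 ± 0.82 (SE, n = 6, edgeR adjusted p = 3.65e-06).

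Cftr, the chloride channel gene known from cystic fibrosis and from epithelia, varied less with the number of nuclei, with SCRB-seq levels 1.54 to 1.84 times as high at 10 as at 100. SCRB-seq gave 2191.5, 3698 and 6192 CPM, while SMART-Seq2 gave 0 CPM in 5 of 6 FFPE libraries and 8.65 CPM in the other. The log2 fold change was -11.98 ± 0.89 (SE, n = 6, edgeR adjusted p = 1.22e-07). A SMART-Seq2 well of 50 FFPE nuclei that was in no fit reached 97.1 CPM. Trim30a, a member of the interferon-inducible TRIM family, lay at 4171, 7230.2 and 12724.5 CPM in SCRB-seq and at 1.06, 3.06 and 8.08 CPM in SMART-Seq2. It had the smallest adjusted p of the genes named here, with a log2 fold change of -11.13 ± 0.69 (SE, n = 6, edgeR adjusted p = 9.95e-09).

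Slco1a6, Sft2d2 and Calcrl parted the chemistries in the same way. Slco1a6, an organic anion transporter gene, gave 2020.4 to 10649 CPM in SCRB-seq and at most 11.5 CPM in SMART-Seq2. Sft2d2, which has a role in vesicle transport, gave 2677 to 22213 CPM against at most 20.4 CPM. Calcrl, the receptor for calcitonin gene-related peptide and adrenomedullin, gave 729.6 to 2799.6 CPM against at most 4.08 CPM. None of these 3 genes had an SCRB-seq FFPE library as low as a SMART-Seq2 one. For Calcrl, with 3871 counts in SCRB-seq against 3 in SMART-Seq2, the ratio of counts per total was 1681 (95% interval 575 to 8156, counting error only).

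Some of the group were never counted by SMART-Seq2 in FFPE nuclei. The long non-coding RNA gene Gm10745 lay at 196 to 2416 CPM in SCRB-seq, which is at least 867-fold higher than a floor of 3 counts over the 6 SMART-Seq2 wells. Grtp1, which encodes a TBC-domain protein, was at least 370.0-fold higher (150.4 to 672 CPM), and Lrrc36, a leucine-rich repeat protein gene, at least 375-fold higher (149 to 497 CPM). The non-coding RNA gene Gm12714 had 2630 counts in SCRB-seq against 1, a ratio of 3426 (95% interval 614 to 135392). The pseudogene Gm9923 had 3133 counts against 2, a ratio of 2041 (95% interval 565 to 16860).

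Neuronal genes that both chemistries counted well were also among those higher in SCRB-seq. Dgkb, a diacylglycerol kinase gene of neurons, lay at 5022, 9082 and 13945.5 CPM in SCRB-seq and at 243, 635 and 1026 CPM in SMART-Seq2, with a log2 fold change of -4.04 ± 0.42 (SE, n = 6, edgeR adjusted p = 3.65e-06). Dlgap1, a scaffold gene of the postsynaptic density, lay at 7612, 10206 and 20547.5 CPM against 1700.0, 2570.5 and 3569 CPM, with a log2 fold change of -2.35 ± 0.33 (SE, n = 6, edgeR adjusted p = 1.12e-04). Neither gene overlapped between the chemistries.

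Summed, the 274 genes took a share of SCRB-seq counts that moved with the number of nuclei. They held 51.4% of counts in the heated mineral oil pool of 10 nuclei and 16.5% in that of 100, 26.9% and 14.5% with heated xylene, and 29.7% and 12.4% with xylene at room temperature. The human share moved alongside, from 15.4% to 26.7% at 10 nuclei and from 8.43% to 10.4% at 100 nuclei. The part of human RNA in these genes was not tested. In SMART-Seq2 the same genes held 1.19% to 1.78% of counts in the 6 wells fitted and 1.41% to 1.69% in the 3 FFPE wells of 50 nuclei that were not fitted. The genes were chosen on these libraries, so only the wells of 50 nuclei are apart from that choice.

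**Figure D2:**
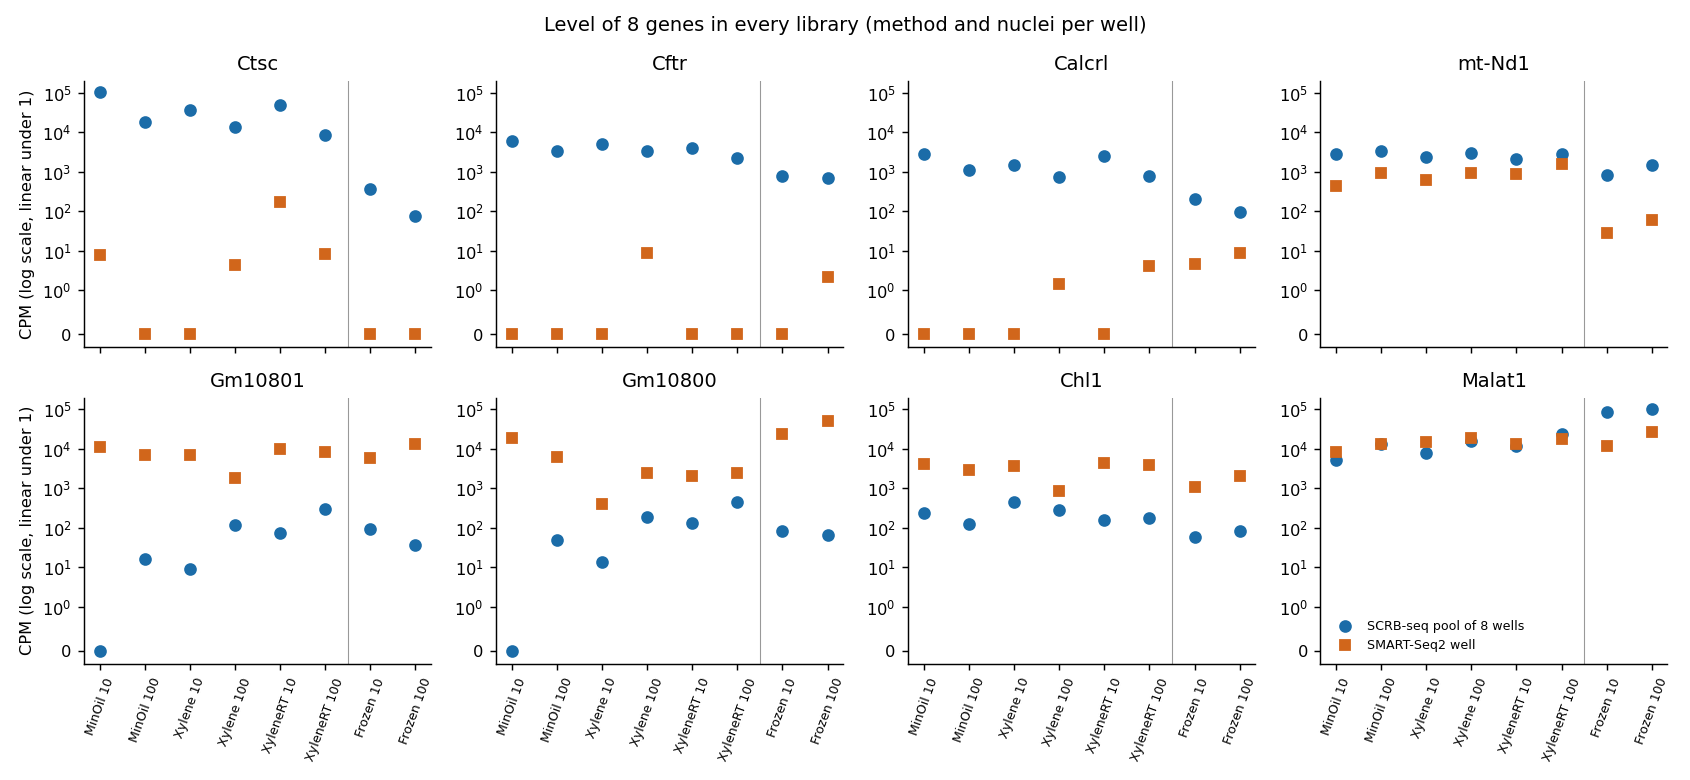
Levels of 8 genes in the 16 libraries, in CPM on an axis that is logarithmic and turns linear under 1: blue circles are SCRB-seq pools and orange squares SMART-Seq2 wells, by method (MinOil and Xylene heated, XyleneRT at room temperature) and nuclei number. Ctsc, Cftr and Calcrl are high in SCRB-seq (up to 103819, 6192 and 2799.6 CPM), Gm10800, Gm10801 and Chl1 in SMART-Seq2 (up to 50506, 13461 and 4382 CPM), and Malat1 overlaps in the FFPE libraries and is higher in SCRB-seq in both frozen groups.

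The genes that were higher in SMART-Seq2 included short predicted genes with shared sequence and long neuronal genes. Of 20 listed repeat-like or ribosomal-RNA-like genes, 8 were in both tables and 7 were tested. In FFPE nuclei 5 of the 7 were higher in SMART-Seq2 and 0 in SCRB-seq, against 0.546% and 4.04% of all genes tested, with a median log2 fold change of 3.28 against -0.05 over all genes tested. Gm10801 lay at 0, 45.0 and 301 CPM in SCRB-seq (lowest, median and highest) and at 1785, 7696 and 11097 CPM in SMART-Seq2. Its groups did not overlap, and the log2 fold change was 7.14 ± 0.84 (SE, n = 6, edgeR adjusted p = 1.79e-05).

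Gm10800 was less even than Gm10801, the gene beside it. It lay at 0, 90.5 and 457 CPM in SCRB-seq and at 409.9, 2483 and 19042 CPM in SMART-Seq2. The lowest SMART-Seq2 library (heated xylene, 10 nuclei) was under the highest SCRB-seq library, while within each group SMART-Seq2 was higher in 6 of 6. The log2 fold change was 4.89 ± 0.78 (SE, n = 6, edgeR adjusted p = 5.26e-04). Gm21738 (log2 fold change 3.28 ± 0.75), Gm26870 (3.44 ± 0.70) and Gm42418 (2.42 ± 0.38) made up the rest of the 5, with edgeR adjusted p of 0.0122, 0.00513 and 4.08e-04. The call for Gm21738 was lost without the heated mineral oil libraries of 100 nuclei (adjusted p = 0.0566) and without the heated xylene libraries of 10 nuclei (0.0553) and at 100 nuclei alone (0.0869), and that for Gm26870 at 10 nuclei alone (0.1) and at 100 nuclei alone (0.0691).

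Chl1, which encodes an adhesion molecule of the L1 family that guides neurites, was the gene spanning over 100 kb that was higher in SMART-Seq2 in both materials. In FFPE nuclei it lay at 127, 205 and 445 CPM in SCRB-seq and at 875, 3748 and 4382 CPM in SMART-Seq2, with no overlap. Its log2 fold change was 3.64 ± 0.46 (SE, n = 6, edgeR adjusted p = 3.37e-05). Chl1 spans 239.6 kb at chr6:103510586-103750211.

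Other long genes of synapses and excitability differed by smaller amounts. Kcnip4, an auxiliary subunit of A-type potassium channels, lay at 2187 to 5883 CPM in SCRB-seq and at 7017 to 14702 CPM in SMART-Seq2 (log2 fold change 1.31 ± 0.28, edgeR adjusted p = 0.00731). Kcnd2, the pore-forming subunit of such a channel, lay at 1518 to 3956 CPM against 4259 to 9454 CPM (1.16 ± 0.28, edgeR adjusted p = 0.0181). For both genes each SMART-Seq2 library was above each SCRB-seq library. The call for Kcnip4 was lost in the libraries of 10 nuclei alone (adjusted p = 0.191). That for Kcnd2 was lost there too (0.445) and without the heated mineral oil libraries of 100 nuclei (0.0902), among other settings.

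Of 50 listed long synaptic and adhesion genes, 46 were tested in FFPE nuclei. Of these, 4 were higher in SMART-Seq2, Kcnip4, Negr1 and Nlgn1 among them, and the cadherin gene Cdh18 (log2 fold change -2.29 ± 0.37) and Cntnap5b, a contactin-associated protein gene (-4.12 ± 0.87), were higher in SCRB-seq. These are 8.70% and 4.35% of the list, against 0.546% and 4.04% of all genes tested. The median over the 46 was 0.43. Of the 37 genes higher in SMART-Seq2, 26 (70.3%) span over 100 kb, against 106 of 260 annotated genes (40.8%) higher in SCRB-seq and 1846 of 6589 annotated genes tested (28%).

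A few genes that SMART-Seq2 counted at modest levels were near 0 in SCRB-seq. Zfp407, a zinc finger gene, lay at 0 to 112 CPM in SCRB-seq and at 199 to 463 CPM in SMART-Seq2 (log2 fold change 4.10 ± 0.82, edgeR adjusted p = 0.00428). Ctnnb1, the beta-catenin gene, lay at 0 to 23.3 CPM against 67.8 to 186 CPM (3.99 ± 1.12, edgeR adjusted p = 0.0460). Dusp3, a phosphatase gene, lay at 0 to 23.3 CPM against 55.1 to 166 CPM (4.11 ± 1.15, edgeR adjusted p = 0.0459). Groups did not overlap for these 3 genes. The calls for Ctnnb1, Dusp3 and the ciliary transport gene Ift52 (5.07 ± 1.37, edgeR adjusted p = 0.0379) were lost under most of the alternatives, with adjusted p of up to 0.413, 0.399 and 0.228. That for Zfp407 was lost at 10 nuclei alone (0.158).

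In frozen nuclei fewer genes passed, with 2 libraries a side in place of 6, which does not show that fewer genes differed. Of the 6777 genes, 20 (0.295%) passed edgeR's test, 15 (0.221%) higher in SCRB-seq and 5 (0.0738%) in SMART-Seq2. Of the 15, 14 were also higher in SCRB-seq in FFPE nuclei, and all 5 higher in SMART-Seq2 were so in FFPE nuclei too. With either nuclei number left out, 0 genes (100 nuclei left) or 1 gene (10 nuclei left) passed. The FFPE libraries entered the same fit, and with 1 FFPE group left out 13 to 34 genes passed. The 274 genes of FFPE nuclei had a median log2 fold change of -3.18 in frozen nuclei (-3.09 with bounds), and 241 of them kept the sign. The 37 had a median of 0.94, and 32 kept the sign. Across 6777 genes the fold changes in the 2 materials, which share no library, had a Pearson r of 0.493 and a Spearman rho of 0.327, as a description over genes that are not independent.

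The leading SCRB-seq genes of FFPE nuclei lay lower in both frozen pools than in any FFPE pool, a difference that was not tested. Ctsc lay at 360.3 and 76.5 CPM (10 and 100 nuclei) in frozen SCRB-seq and at 0 in both frozen SMART-Seq2 wells, which is at least 70.04-fold higher. Cftr lay at 782 and 709 CPM against 0 and 2.14 CPM, a ratio of 989 (95% interval 177 to 39131, 777 counts against 1). Trim30a lay at 1292 and 1144 CPM against 0 and 4.29 CPM, a ratio of 804 (95% interval 222 to 6642, edgeR adjusted p = 4.98e-04). These 3 genes parted the chemistries in both frozen groups as in all 6 FFPE groups. Tspan3 did not pass in frozen nuclei, at 333 and 113 CPM against 51.7 and 66.5 CPM.

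Lmx1a, a homeobox gene of midbrain dopaminergic and hindbrain progenitors, had the opposite order of materials within SCRB-seq, which was not tested either. It lay at 73.0 to 150.2 CPM in FFPE and at 833 and 632 CPM in frozen SCRB-seq. SMART-Seq2 gave Lmx1a at most 1.35 CPM in FFPE and 1.12 and 2.14 CPM in frozen nuclei. The gene passed in frozen nuclei (edgeR adjusted p = 0.0158), but not without the heated mineral oil libraries of 100 nuclei (0.0606).

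On the SMART-Seq2 side, Gm10800 was the top gene of frozen nuclei with 3.32% of counts. It lay at 85.0 and 64.9 CPM in frozen SCRB-seq and at 24057 and 50506 CPM in frozen SMART-Seq2, with a log2 fold change of 8.97 ± 1.5 (SE, n = 2, edgeR adjusted p = 0.00907). Gm10801 (7.32 ± 1.40), Gm21738 (7.08 ± 1.40), Gm26870 (7.58 ± 1.33) and Chl1 (4.53 ± 0.80) were the other 4, with edgeR adjusted p of 0.0247, 0.0311, 0.0141 and 0.0146. None of the 5 overlapped between the chemistries in frozen nuclei. The frozen calls for Gm10801 (edgeR adjusted p = 0.0518) and Gm21738 (0.0796) were lost without the heated xylene libraries of 10 nuclei, and that for Gm21738 without the room-temperature ones (0.0505).

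Malat1, an abundant long non-coding RNA that stays in the nucleus, parted the chemistries in frozen nuclei. It lay at 83897 and 100934 CPM in frozen SCRB-seq, or 9.62% of all counts, and at 11653 and 25979 CPM in frozen SMART-Seq2 (log2 fold change -2.32 ± 0.43, n = 2, edgeR adjusted p = 0.0190). The call was lost without the FFPE libraries of 100 nuclei from heated mineral oil (adjusted p = 0.0606) or heated xylene (0.0510). In FFPE nuclei it lay at 5215, 12506 and 23169 CPM in SCRB-seq and at 8345, 13902 and 18375 CPM in SMART-Seq2. These overlapped throughout and did not pass (log2 fold change 0.10 ± 0.23, edgeR adjusted p = 0.898). Meg3, another nuclear long non-coding RNA, did not pass in either material, at 12103 and 13369.8 CPM against 7628 and 12337 CPM in frozen nuclei.

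Whether the chemistry difference itself changed between FFPE and frozen nuclei was tested as an interaction. By edgeR 0 of 6777 genes (0%) passed, with 210 at an unadjusted p under 0.05. DESeq2 called 29, limma voom 2, and edgeR 4 without the heated mineral oil libraries of 10 nuclei. The frozen calls above that lack an FFPE call, as with Malat1 (interaction adjusted p = 0.259), are therefore not shown to differ between the materials.

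In FFPE nuclei the mitochondrial genes did not move as 1 group. Their RNAs are made outside the nucleus, in mitochondria. Of 9 mitochondrial genes tested in FFPE nuclei 2 passed, 1 in each direction, against 4.04% of all genes tested higher in SCRB-seq and 0.546% in SMART-Seq2: mt-Nd1, a subunit of complex I, was higher in SCRB-seq and mt-Co1, a subunit of cytochrome c oxidase, in SMART-Seq2. mt-Nd1 lay at 2152, 2767 and 3367 CPM in SCRB-seq against 449.5, 901 and 1612 CPM in SMART-Seq2, without overlap (log2 fold change -1.85 ± 0.37, edgeR adjusted p = 0.00470). mt-Co1 lay at 139.5, 348 and 510.3 CPM against 786, 1104 and 1918 CPM, also without overlap (1.74 ± 0.40, edgeR adjusted p = 0.0119). The call for mt-Co1 was lost without the libraries of 100 nuclei from xylene, with heat (adjusted p = 0.0510) or at room temperature (0.0591), and in the libraries of 10 nuclei alone (0.600), where that for mt-Nd1 was lost too (0.149). In frozen nuclei mt-Nd1 lay at 843 and 1520.1 CPM against 28.1 and 60.1 CPM (-4.69 ± 0.72, edgeR adjusted p = 0.00432), and mt-Co1 at 370.5 and 685 CPM against 162 and 234 CPM, which did not pass.

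Shares of counts were then compared by gene class, well by well, for 37 classes in each material. A class was called where a stratified exact permutation test, 2-sided and adjusted over 74 tests, gave an adjusted p under 0.05. The smallest p it can give is 1.88e-06 in FFPE and 0.0123 in frozen nuclei. In FFPE nuclei 21 classes (56.8%) and in frozen nuclei 23 classes (62.2%) were called, so a call alone sets no class apart. The calls rest on treating the 8 wells of a pool as separate: with 1 value per pool, 0 classes pass in either material, since the smallest adjusted p is then 0.154 in FFPE and 0.597 in frozen nuclei.

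Long genes took more of the SMART-Seq2 counts in both materials. Genes spanning over 250 kb, many of which are neuronal adhesion and channel genes, held 24.2% ± 1.61 of FFPE SCRB-seq counts (SD, n = 48 wells) and 32.3% ± 1.54 in SMART-Seq2 (n = 6, permutation adjusted p = 1.74e-05). In frozen nuclei they held 25.5% ± 1.66 (n = 16) against 36.3% ± 2.18 (n = 2, permutation adjusted p = 0.0228). No well of one chemistry fell into the range of the other in either material. The long synaptic and adhesion genes alone held 4.01% against 6.73% in FFPE and 5.40% against 8.64% in frozen nuclei, with permutation adjusted p of 1.74e-05 and 0.0228.

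Genes of middle span showed the reverse. Those of 20 to 50 kb, which include Ctsc and Tspan3, held 23.8% ± 5.90 of FFPE SCRB-seq counts and 15.0% ± 0.769 in SMART-Seq2 (permutation adjusted p = 1.74e-05). In frozen nuclei they held 15.6% against 13.3%, and those of 5 to 20 kb 20.9% against 11.1% (permutation adjusted p = 0.0228 for both). By exonic length, genes over 8 kb held 33.6% against 42.5% in FFPE and 36.4% against 45.2% in frozen nuclei. Genes of 4 to 8 kb held 41.1% against 34.9% and 39.9% against 32.4%. For the span class of 20 to 50 kb and both exonic length classes, the direction was the same in 6 of 6 FFPE and 2 of 2 frozen groups. Without the 20 most abundant genes the excess of 4 to 8 kb genes in SCRB-seq was no longer called in either material (differences of -0.33 and -0.35 percentage points).

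**Figure D3:**
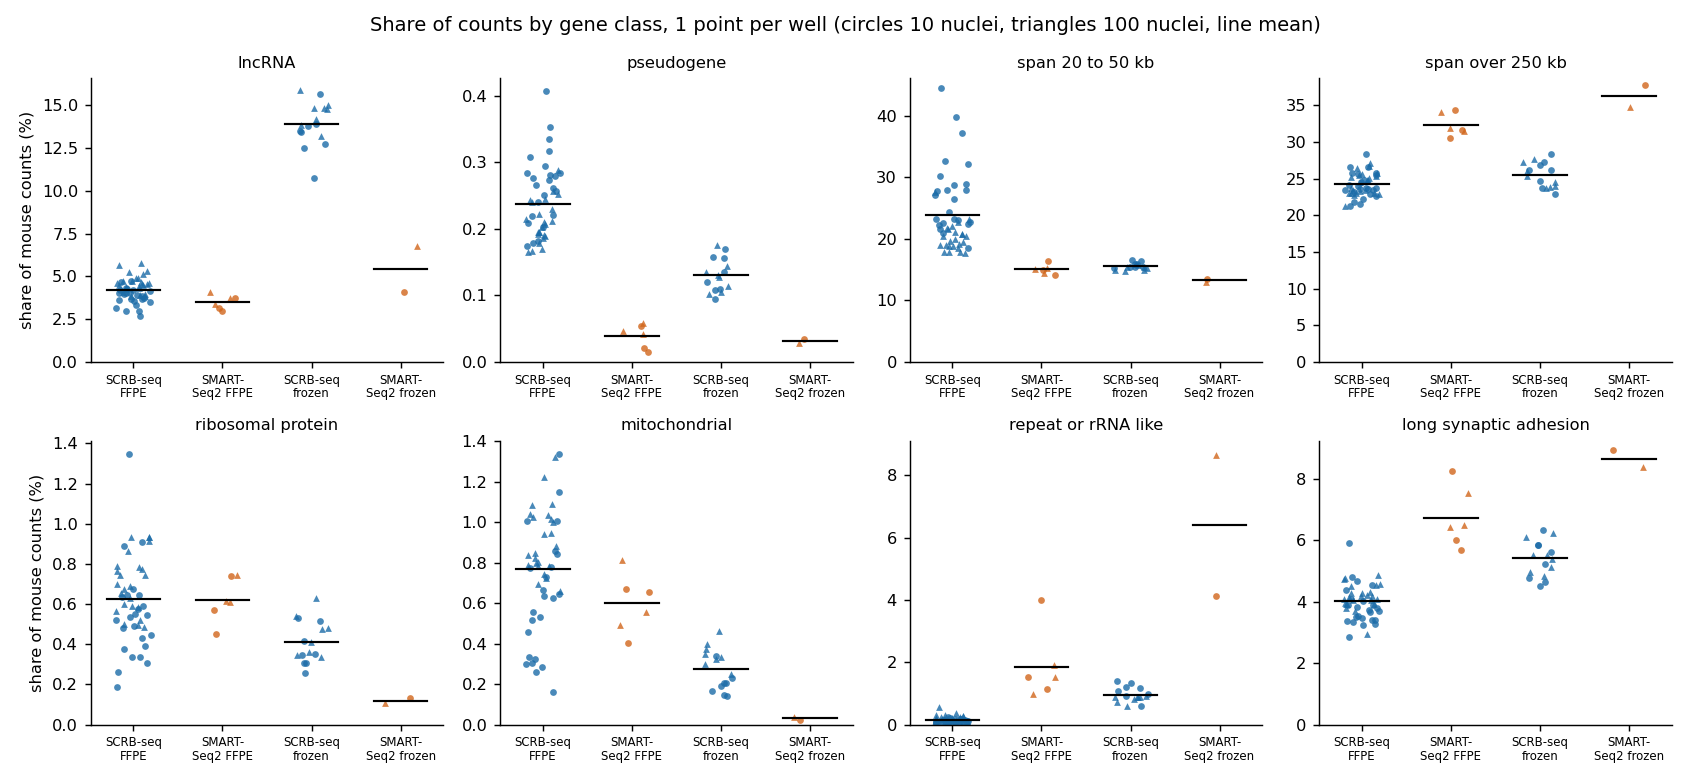
Share of each well's counts, in percent, held by 8 gene classes, with SCRB-seq and SMART-Seq2 wells side by side for FFPE and frozen nuclei: circles are wells of 10 nuclei, triangles wells of 100 nuclei and lines the means. Genes spanning over 250 kb and repeat-like genes lie higher in SMART-Seq2 in every group, and long non-coding RNA lies far higher in frozen SCRB-seq (13.9%) than in frozen SMART-Seq2 (5.43%).

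Gene by gene, the fold change rose with length. The median log2 fold change of genes with at most 1 kb of exonic sequence was -0.78 in FFPE and -2.66 in frozen nuclei, and that of genes over 8 kb was 0.23 and 0.20. By span it went from -0.36 and -1.76 at up to 5 kb to 0.27 and 0.31 above 250 kb. The quartiles within each bin were wide, for example -0.77 to 0.92 for FFPE genes over 8 kb. Across 6589 genes the Pearson r between exonic length and fold change was 0.150 in FFPE and 0.284 in frozen nuclei, and that between span and fold change 0.0257 and 0.191, as a description. By GC content, genes over 54% had a median of -0.48 in FFPE and -0.32 in frozen nuclei, and those up to 38% had 0.25 and -0.12.

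**Figure D4:**
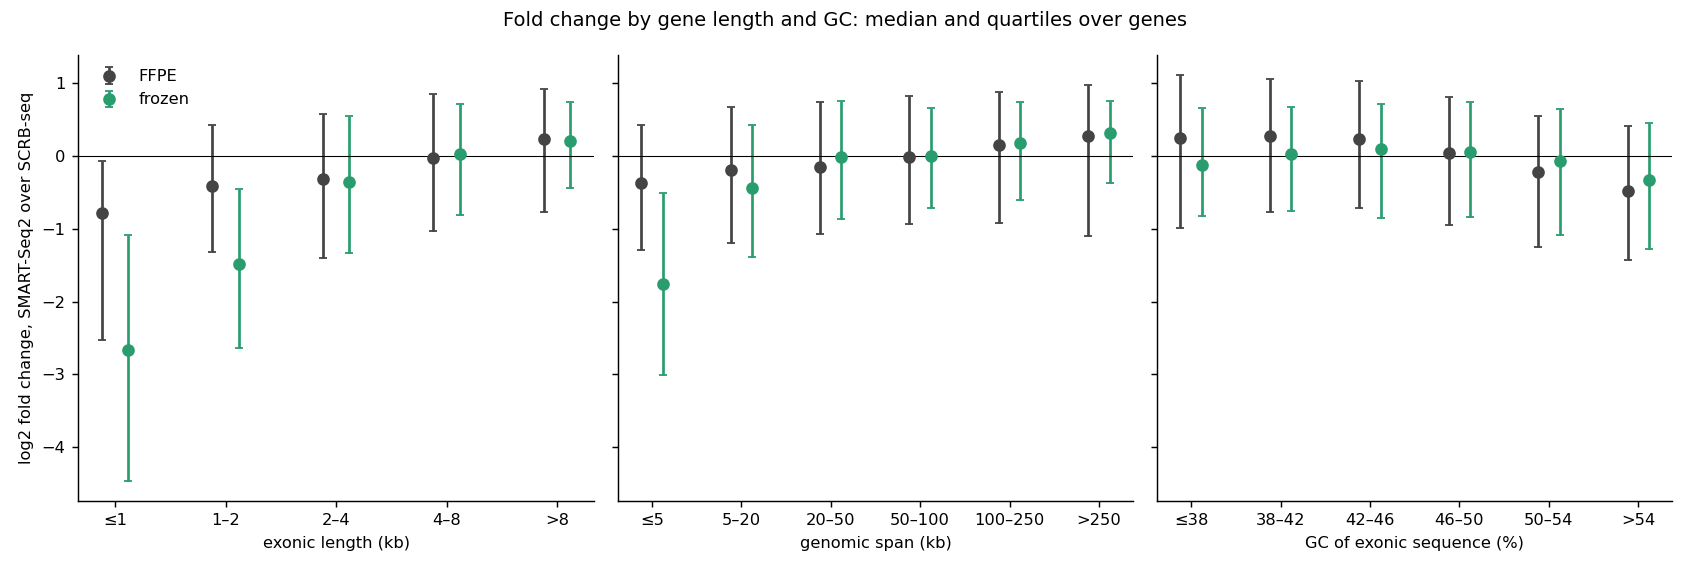
Median log2 fold change (SMART-Seq2 minus SCRB-seq) of the genes in each bin of exonic length, gene span and GC content, with quartiles as bars, for FFPE and frozen nuclei. By exonic length the median climbs from the shortest bin (-0.78 in FFPE and -2.66 in frozen nuclei) to the longest (0.23 and 0.20).

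For the shortest genes the share of counts and the typical gene went opposite ways. Genes under 1 kb of exonic sequence held 1.40% ± 0.137 of frozen SCRB-seq counts and 5.85% ± 2.78 of frozen SMART-Seq2 counts (permutation adjusted p = 0.0228), although their median fold change was negative. Gm10800, Gm10801 and Gm21738 are in this class, and without the 20 most abundant genes, these 3 among them, the difference turned to -1.16 percentage points. In FFPE nuclei the class held 2.15% against 2.44%, which did not pass (permutation adjusted p = 0.167), and -1.41 percentage points without the 20 genes. The FFPE difference turned from 0.294 to -0.152 points without the heated mineral oil group of 10 nuclei (permutation adjusted p = 0.221). Repeat-like genes summed to 0.154% ± 0.103 of FFPE SCRB-seq counts against 1.85% ± 1.11 in SMART-Seq2, and to 0.956% ± 0.232 against 6.40% ± 3.21 in frozen nuclei, with no overlap of wells (permutation adjusted p = 1.74e-05 and 0.0228).

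By biotype, long non-coding RNA took the larger share in SCRB-seq. Long non-coding RNA held 13.9% ± 1.29 of frozen SCRB-seq counts and 5.43% ± 1.87 of frozen SMART-Seq2 counts, and protein-coding genes 83.8% ± 1.22 against 92.5% ± 1.81 (permutation adjusted p = 0.0228 for both). The 11 nuclear long non-coding RNAs of a list that holds Malat1 and Meg3 made up 10.9% against 3.95% of counts there. Without the 20 most abundant genes, Malat1 and Meg3 among them, the difference in long non-coding RNA was -0.45 percentage points and was not called. In FFPE nuclei long non-coding RNA held 4.22% ± 0.667 against 3.51% ± 0.418 (permutation adjusted p = 8.01e-04), with wells overlapping. Pseudogenes held 0.237% against 0.0390% in FFPE and 0.130% against 0.0316% in frozen nuclei, with no well overlapping (permutation adjusted p = 1.74e-05 and 0.0228). Pseudogene counts depend on how reads shared with the parent gene were assigned, a rule that the sources do not state.

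Short, abundant messages of ribosomes and respiration parted the chemistries in frozen nuclei. The 78 ribosomal protein genes held 0.413% ± 0.105 of frozen SCRB-seq counts and 0.119% ± 0.0161 in SMART-Seq2. Nuclear-encoded respiratory chain genes held 0.280% against 0.0782%, mitochondrial genes 0.276% against 0.0317%, and abundant cytoplasmic messages 0.999% against 0.506%. All 4 had a permutation adjusted p of 0.0228, and no frozen well of one chemistry overlapped the other in any of them. In FFPE nuclei the ribosomal protein genes held 0.625% ± 0.214 against 0.621% ± 0.110 (permutation adjusted p = 0.953) and mitochondrial genes 0.771% ± 0.283 against 0.599% ± 0.146 (0.159), neither of which passed. Respiratory chain genes held 0.564% against 0.377% (0.00177), and abundant cytoplasmic messages were the other way, at 1.19% against 1.46% (0.0228). Without the heated mineral oil group of 10 nuclei the last difference fell from 0.270 to 0.136 percentage points and was no longer called (permutation adjusted p = 0.181), while that of mitochondrial genes was called at -0.225 (0.0419). The call for abundant cytoplasmic messages was also lost without the 20 most abundant genes (0.1808 percentage points, permutation adjusted p = 0.095). As single genes, 0 of 73 ribosomal protein genes and 0 of 38 abundant cytoplasmic messages passed edgeR's test in either material. Of 40 respiratory chain genes 1 passed, against 4.04% higher in SCRB-seq over all genes tested: Cox6b1 did so in FFPE nuclei, higher in SCRB-seq (log2 fold change -2.75 ± 0.69, edgeR adjusted p = 0.0238).

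Cell type markers were compared the same way; in bulk wells, fewer cells of a type and less RNA per cell cannot be told apart. In FFPE nuclei endothelial markers held 0.238% ± 0.139 of SCRB-seq counts and 0.0970% ± 0.127 of SMART-Seq2 counts, and microglial markers 0.0392% ± 0.0267 against 0.0127% ± 0.0111 (permutation adjusted p = 0.0228 for both). Striatal markers were higher in SMART-Seq2, at 0.0919% against 0.234% (1.74e-05), as were inhibitory neuron markers at 0.0739% against 0.117% (0.0232) and cerebellar granule markers at 0.229% against 0.352% (0.0239). Wells of the chemistries overlapped in all 5 of these lists. Inhibitory and granule markers were higher in SMART-Seq2 in 4 of 6 groups each. The call for inhibitory markers, a difference of 0.0429 percentage points, was lost without heated mineral oil at 10 nuclei (0.0351, permutation adjusted p = 0.121) or 100 nuclei (0.0415, 0.064) and without room-temperature xylene at 100 nuclei (0.0236, 0.237). That for granule markers, 0.123 points, was lost without heated mineral oil (0.0788, 0.0517) or room-temperature xylene (0.0840, 0.184) at 10 nuclei. The endothelial call, at -0.141 points, was lost without heated xylene at 10 nuclei (-0.112, 0.0713). Without the 20 most abundant genes those for inhibitory and granule markers were lost too (0.0644 and 0.0649). In frozen nuclei cerebellar granule markers held 0.0306% against 0.0486%, with Gabra6 and Cbln3 at 0 in both chemistries, against all 9 detected in FFPE nuclei. There cortical excitatory markers held 0.175% ± 0.0345 against 0.248% ± 0.00516 (permutation adjusted p = 0.0228), without overlap.

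Few members of these lists passed as single genes in FFPE nuclei, where 4.59% of all genes tested did (4.04% higher in SCRB-seq, 0.546% in SMART-Seq2). Of the microglial, inhibitory and cerebellar granule markers tested, 0 of 3, 0 of 3 and 0 of 8 passed. In the endothelial list the member that passed was Tek, the angiopoietin receptor, at 913, 1866 and 4108 CPM in FFPE SCRB-seq against 0, 18.6 and 174 CPM in SMART-Seq2 (log2 fold change -6.98 ± 0.83, edgeR adjusted p = 1.84e-05). Tek was 1 of 7 tested endothelial markers that passed. The other 9 listed markers summed to 272 to 545 CPM in the SCRB-seq pools. In SMART-Seq2 they summed to 1761 and 3084 CPM in the wells of 10 nuclei from heated mineral oil and room-temperature xylene, and to 41.4 to 383.5 CPM in the other 4. SCRB-seq was higher in 3 of the 6 groups, and the SMART-Seq2 mean of 929 CPM fell to 498 CPM without room-temperature xylene at 10 nuclei. Flt1 and Slco1a4, also endothelial, did not pass and were unsteady in SMART-Seq2, each reaching 1272 CPM in the room-temperature xylene well of 10 nuclei. Pde10a, a phosphodiesterase gene of striatal neurons, was the 1 of 4 tested striatal markers that passed, at 157 to 655 CPM against 859 to 2078 CPM (1.80 ± 0.42, edgeR adjusted p = 0.0137). Its call was lost without the heated xylene libraries of 10 nuclei (adjusted p = 0.0775), at 10 nuclei alone (0.149) and at 100 nuclei alone (0.103). The defining striatal gene Adora2a was at 0 in FFPE libraries of both chemistries, Drd1 was at 0 in SCRB-seq and Drd2 in SMART-Seq2. Of 9 microglial markers shared by the tables, 5 were at 0 in frozen SMART-Seq2 (Csf1r, C1qb, C1qc, Tmem119 and Selplg) and 2 in frozen SCRB-seq (Csf1r and C1qb).

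Y-linked genes, which check whether both chemistries drew on male nuclei, were present in frozen libraries of both chemistries. In FFPE libraries Ddx3y lay at 15.9 to 34.9 CPM in all 6 SCRB-seq pools (61 counts) and at 0 in all 6 SMART-Seq2 wells, at least 26.5-fold higher. Uty had 50 counts against 1, a ratio of 65.1 (95% interval 11.2 to 2624), and Kdm5d 16 against 0, at least 6.95-fold higher. Eif2s3y had 0 counts in every FFPE library of either chemistry. Whether the FFPE wells of the 2 chemistries came from the same animals is not stated in the labels.

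The number of genes found in FFPE nuclei depended on the number of counts at which the chemistries were compared. Equal counts may not be equal sampling, since a count may not mean the same in both. With each well thinned to 20000 counts, which left out 9 SCRB-seq wells, SMART-Seq2 wells held 3656 to 5865 genes and exceeded the SCRB-seq mean of their group by 259.5 genes on average (stratified exact permutation p = 0.463). They were lower in 3 of the 6 groups, and in the heated mineral oil group of 10 nuclei a single SCRB-seq well was left. Without that group the difference was 15.0 genes (exact permutation p = 0.926). At 7000 counts the difference was 240.4 genes (exact permutation p = 0.0213), and at 50000 counts it turned to -424.9 (0.0822). In frozen nuclei SMART-Seq2 held 5068 and 5179 genes against SCRB-seq means of 5242 ± 114 (SD, n = 6) and 5863 ± 97.8 (n = 8), a difference of -429 genes (exact permutation p = 0.0159, the smallest its 63 assignments allow). Without thinning SMART-Seq2 held more genes in every group, by 2674 on average in FFPE and 3745 in frozen nuclei.

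The barcodes shown above also marked genes within SCRB-seq. This comparison was added after values had been seen. Across the 64 SCRB-seq wells, with the pool as a block, 233 of 2508 genes (9.29%) differed between the 8 barcodes by edgeR (adjusted p under 0.05). Of the 274 genes higher in SCRB-seq in FFPE nuclei, 205 could be tested and 97 (47.3%) differed by barcode, against 0 of 28 tested genes higher in SMART-Seq2. Both comparisons use the same SCRB-seq counts. By barcode of the highest level, TTCCTC had 68 genes, GCGTGG 42, CTTCTG 30, CGACTT 25, CGGAGG 24, AGAATT 20, ATACTT 13 and CGTCGC 11. The count was 275 of 1976 in FFPE wells alone and 0 of 902 in frozen wells alone, where 15 genes had an unadjusted p under 0.05. Without the room-temperature xylene pool of 10 nuclei it was 151. Each barcode sits in 1 numbered well of every pool, so barcode and well number cannot be told apart.

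The clearest cases, named after their values were seen, were highest at 1 barcode in 8 of 8 pools. Calcrl lay at 2318 to 14468 CPM with GCGTGG in the 6 FFPE pools and at 145 to 3482.5 CPM in their other wells, a mean over all 8 pools of 5782 against 690 CPM, or 8.38-fold. Kctd19, Zfp263 and the ion channel gene Trpc4 were likewise highest with GCGTGG in all 8 pools. Snx12, a sorting nexin gene, was highest with TTCCTC at a mean of 2260 against 137 CPM, or 16.6-fold, as were Trim71, Trdmt1 and 4930558K02Rik. Grtp1 was highest with ATACTT in 7 of 8 pools (6.73-fold). Of the 42 genes highest with GCGTGG, 25 were second highest with CGGAGG, and of the 24 highest with CGGAGG, 9 were so with GCGTGG. Of the 30 highest with CTTCTG, 17 were second highest with CGACTT, and of the 68 highest with TTCCTC, 20 were so with CGTCGC. Barcodes 6 and 7 end alike, and barcodes 1 and 5 share a longer end. Barcode 5 was second for 3 of the 13 genes highest with barcode 1, and barcode 1 for 2 of 25 in reverse. A role of shared barcode ends was not tested. Ctsc was 1.85-fold and Trim30a 1.33-fold higher at its top barcode, and Cftr did not pass (edgeR adjusted p = 0.0749).

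**Figure D5:**
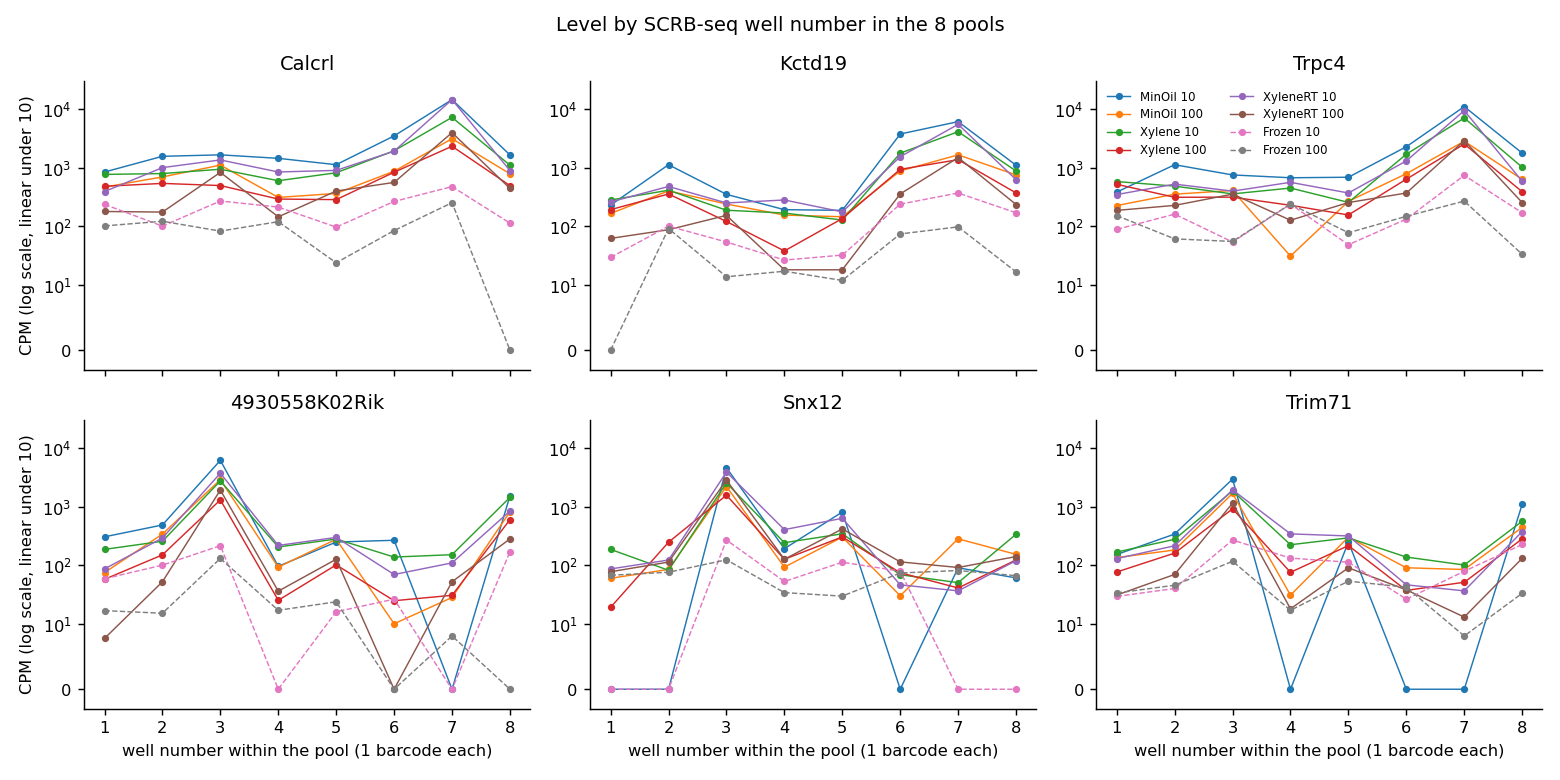
Level of 6 genes (Calcrl, Kctd19, Trpc4, 4930558K02Rik, Snx12 and Trim71), in CPM on an axis that is logarithmic and turns linear under 10, by the number of the well barcode, with 1 line for each of the 8 SCRB-seq pools. The first 3 peak at barcode 7 and the last 3 at barcode 3 in all 8 pools.

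The 2 other readouts of this series, which entered no fit, gave the levels of the same genes in single nuclei. In 7031 nuclei read on droplets, another 3′-end chemistry, Ctsc lay at 3.46, Cftr at 2.69 and Trim30a at 36.1 CPM, and Gm12714 at 0. In 98 and 134 nuclei read by SMART-Seq2 on plates in 2 batches, Ctsc lay at 0 and 0.297 CPM and Cftr at 49.1 and 0.297 CPM. Another plate batch of the series was not used here. The sample titles of these readouts name the method as snFFPE-Seq. The SCRB-seq bulk levels of these genes were thus far above those in either readout. The 274 genes together held 2.79% of droplet counts and 1.60% and 1.46% of plate counts, with 267, 273 and 273 of them in those tables.

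The genes higher in SMART-Seq2 differed among themselves in these readouts. Gm10800 lay at 8340.5 and 6043 CPM in the 2 plate batches and at 0.768 CPM in droplets, and Gm10801 at 97808 and 4705 CPM on plates. Chl1 lay at 17612 and 590 CPM on plates and at 255 CPM in droplets. Kcnip4 lay at 6778.5 and 3606 CPM on plates and at 10080.6 CPM in droplets. Dusp3 lay at 25.9 and 12.7 CPM on plates and at 48.4 CPM in droplets. The 37 genes held 18.6% and 4.76% of plate counts and 8.19% of droplet counts. The droplet values rest on 1 library and the plate values on 2 batches that differ widely, and no difference between readouts was tested.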

How the data were processed

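Nuclei from mouse cortex were sorted into bulk wells and read by SCRB-seq or SMART-Seq2. The authors deposited counts per gene and well with an annotation of wells; builds hg19 and mm10 come from the submitters' processing notes, and the aligner and the handling of molecular identifiers are not stated there or in the labels. For this comparison mouse genes were matched by symbol, 17950 of 18702 to GENCODE M21. Genes were tested with edgeR 4.0.16 (R 4.3.3; TMM, filterByExpr, quasi-likelihood, Benjamini-Hochberg at 0.05) over 16 libraries, 8 summed SCRB-seq pools and 8 SMART-Seq2 wells, with method and nuclei number as a block. The block pairs libraries by label and not by a shared well. Class shares and gene numbers were compared per well by permutation within groups (numpy 2.4.6, scipy 1.17.1). Wells were thinned to 20000 counts. Fits and permutations were tested on simulated data. Named genes were, in each material, the 10 largest changes of each sign among genes called, alike in every group and at 50 CPM or more in a chemistry's mean, the 5 with the largest share of counts per chemistry, and up to 4 members of each list; other list members that passed were named after their values were seen. The members and gene lists were chosen with earlier results of these data known. Alternatives used limma 3.58.1 and DESeq2 1.42.0. Intervals and floors (3 counts) cover counting error only. Some genes that the rule names are not reported here.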

Additional observations from a re-analysis of the deposited data

Results flagged for a closer look

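Among 124 groups of 6 FFPE libraries tested for a single library far from the others (Dixon's test at 95%), 27 had one. The test assumes normally distributed values. Where 5 libraries are at 0, any count in the remaining library is flagged, so the 27 cannot be set against a chance rate. For genes higher in SCRB-seq the flagged libraries were single SMART-Seq2 wells above the other 5. In CPM, with the next highest well in parentheses, Ctsc reached 177 (8.16) in the room-temperature xylene well of 10 nuclei. The room-temperature xylene well of 100 nuclei was highest for Sft2d2 at 20.4 (4.04) and Calcrl at 4.08 (1.44). The heated xylene well of 100 nuclei was highest for Cftr at 8.65 (0), Gm9923 at 2.88 (0) and Gm26820 at 4.33 (1.35). The heated mineral oil well of 100 nuclei was highest for Afm, a vitamin E-binding plasma protein gene, at 17.5 (4.06), and for Gm12714, Lmx1a and Gm12514 at 1.35 each (0).

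The repeat-like genes stood apart in the heated mineral oil SMART-Seq2 well of 10 nuclei. There Gm10800 reached 19042 CPM (next 6174), Gm21738 3680 CPM (next 1385) and Gm26870 2509.5 CPM (next 982). Their class held 4.01% of that well's counts (next 1.92%), genes under 1 kb of exonic sequence 4.42% (next 2.45%) and genes spanning under 5 kb 7.75% (next 5.64%). In SCRB-seq the room-temperature xylene pool of 100 nuclei was highest for Gm21738 at 316 CPM (next 114), Gm26870 at 168 (next 65.5), Zfp407 at 112 (next 26.2) and Ift52 at 16.2 (next 2.28). In SMART-Seq2 Ift52 reached 185 CPM with heated xylene and 10 nuclei (next 53.0), and Gm27017 203 CPM with room-temperature xylene and 10 nuclei (next 91.9).

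The heated mineral oil SCRB-seq pool of 10 nuclei stood apart in 4 class shares. It was lowest for genes of 1 to 2 kb of exonic sequence at 4.15% (next 5.26%), genes spanning 50 to 100 kb at 12.3% (next 13.96%) and respiratory chain genes at 0.265% (next 0.556%), and highest for replication histones at 0.0283% (next 0.00551%). Y-linked genes reached 0.000203% in 1 SMART-Seq2 FFPE well, with room-temperature xylene and 10 nuclei, and 0 in the other 5.

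In 9 of 37 classes the chemistry difference in FFPE nuclei minus that in frozen nuclei, in percentage points of counts, had the smallest exact permutation p that 28 assignments allow (0.0357), which is 0.147 after adjustment. It was -7.45 for protein-coding genes, 7.80 for long non-coding RNA, 7.04 for nuclear long non-coding RNA, 8.72 for genes spanning 5 to 20 kb and 1.31 for genes of 1 to 2 kb of exonic sequence. It was 0.763 for abundant cytoplasmic messages, 0.0949 for heat shock genes, -0.0145 for Y-linked genes and -0.0871 for cortical excitatory markers. The last 2 went in opposite directions in the materials, in every group.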

How the results depend on the processing

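The count of genes called depended on the model. In FFPE nuclei, against 311, it was 1111 with DESeq2's Wald test, 677 with no filter on low counts, 515 with limma voom, 1342 with single wells as libraries and 142 at 10 nuclei alone, where 306, 308, 308, 242 and 115 of the 311 remained. It was 329 with DESeq2 size factors, which moved the median of all genes to -0.23 and the 37 genes higher in SMART-Seq2 to 18. Without the block of method and nuclei number it was 374, or 77 higher in SMART-Seq2 and 297 in SCRB-seq. Leaving out 1 group at a time gave 212 to 317, the lowest without heated xylene at 10 nuclei, with 14 to 39 higher in SMART-Seq2. In frozen nuclei, against 20, the same 4 models gave 129, 45, 46 and 191, the fit with no block 34 and left-out groups 0 to 34. For the difference between materials, against 0, they gave 29, 29, 2 and 130, no block 1, the fit without the 20 most abundant genes 1 and left-out groups 0 to 4. The cause of these shifts was not tested. Genes differing by barcode, against 233, were 0 in frozen wells alone, 55 at 100 nuclei, 90 at 10 nuclei and 151 to 251 with 1 pool left out. Classes called fell to 0 in both materials with 1 value per pool, and to 0 in frozen nuclei with either group left out, since neither design can reach the threshold.

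The difference in genes detected, 259.5 in FFPE and -429 in frozen nuclei at 20000 counts, was 240.4 (exact permutation p = 0.0213) at 7000 counts and -424.9 (0.0822) at 50000 counts in FFPE nuclei, and 2674 with no thinning. In frozen nuclei it was -616.8 at 50000 counts, -173.8 at 10 nuclei, -683.8 at 100 nuclei and 3745 with no thinning; left-out groups gave 15.0 to 423 in FFPE nuclei and -683.8 to -173.8 in frozen nuclei. Without the 20 most abundant genes the share difference, in percentage points, turned to -1.41 (FFPE) and -1.16 (frozen) for exonic length under 1 kb, to -1.28 and -2.85 for span under 5 kb, and to -0.0264 for FFPE nuclear long non-coding RNA. With 1 value per pool that of FFPE ribosomal protein genes was 0.00584. Left-out groups turned the sign of small differences that were not called. In FFPE nuclei these ranged from -0.152 to 0.472 for exonic length under 1 kb, -0.240 to 0.883 for span under 5 kb, -0.404 to 0.0648 for span 50 to 100 kb, -0.0229 to 0.271 for nuclear long non-coding RNA and -0.0716 to 0.0361 for ribosomal protein genes. They ranged from -0.00483 to 0.00248 for histones, -0.0105 to 0.00176 for immediate early genes, -0.0378 to 0.0108 for oligodendrocyte, -0.0379 to 0.0955 for astrocyte and -0.00407 to 0.000788 for mural markers. In frozen nuclei they were -0.0288 to 0.00589 for astrocyte and -0.00695 to 0.000175 for mural markers. Some of these classes were held by few counts in single SCRB-seq wells, and a role of depth in these shifts was not tested.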
